A study of Homo sapiens with 6 samples.

Results

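Genes for hnRNP and SR splicing factors were followed in LNCaP cells, a human prostate cancer line that responds to androgen, after treatment with the androgen dihydrotestosterone (DHT). The set was chosen by gene symbol: every symbol that begins with HNRNP, every numbered SRSF gene, and MATR3, SCAF1, SCAF4, SCAF8, SCAF11, SFPQ, NONO, PSPC1, TRA2A, TRA2B, PTBP1, PTBP2, RBM39, SRRM1 and SRRM2. It holds 46 of the 19775 gene symbols that probe sets naming a single gene cover on the array. Of these, 45 were tested and the pseudogene HNRNPA3P1 lay below the limit on dim probe sets. The 45 include the noncoding transcript HNRNPD-DT, which fits the symbol rule but encodes no splicing factor, and counts of splicing factor genes below include it. A further 9 protein-coding genes that fit the symbol rule, among them SRSF2, SRSF9 and HNRNPH2, have no probe set that names them alone and were not analysed here. One group of 3 cultures received 100 nM DHT for 48 h, and 3 control cultures form the group it is compared with; the cells were grown in phenol red-free RPMI with a charcoal/dextran supplement, a form that is poor in steroids, for 3 days beforehand. The sources do not state which vehicle, if any, the controls received. Each culture was read on 1 Affymetrix array, and signals are MAS5 intensities on a linear scale. All samples are of 1 cell line, so that the data describe that line only.

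Pre-mRNA splicing removes introns with the help of proteins that decide which exons are kept. SR proteins carry RNA recognition motifs and a tail rich in arginine and serine dipeptides, bind exonic enhancers and recruit the splicing machinery. The hnRNPs coat nascent transcripts, bind silencers as well as enhancers, and also act in export, stability and translation. Many genes of both families adjust their own mRNA through exons or introns that send the transcript to nonsense-mediated decay, so that 1 gene makes several transcript forms. In prostate cancer cells, hnRNPs and SR proteins have been studied for their part in splicing the androgen receptor transcript.

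The arrays had been scaled to the same trimmed mean before deposition, so every change is relative to an array's overall level. Across probe sets, arrays of the same group correlated at r = 0.973 to 0.978, and arrays of different groups at 0.958 to 0.966. The 3' to 5' signal ratio of the ACTB control probe sets, a measure of how complete the labelled RNA was, averaged 1.77 ± 0.07 with DHT and 1.37 ± 0.05 in controls (SD, n = 3 each), and that of GAPDH 1.06 ± 0.05 with DHT and 0.904 ± 0.044 in controls. The mean log2 signal of the hybridisation spikes was 10.14 ± 0.14 with DHT and 9.59 ± 0.11 in controls. The part of these shifts in the results was not tested. Prostate luminal markers were bright, with a summed signal of 19104 to 19714 with DHT and 9008 to 9162 in controls over 8 of 10 listed genes. They did not move alike, and KLK3 alone averaged 8985 with DHT and 2186 in controls. At an adjusted p of 0.05, KLK3, KLK2, SLC45A3 and ACP3 were higher and HOXB13 (-0.37) and KRT8 (-0.43) lower on the log2 scale. FOLH1 and KRT18 did not pass. The basal markers KRT5 and KRT14 and the leukocyte markers PTPRC and CD14 were too dim to be tested. The tested leukocyte marker CD3E averaged 14.4 with DHT and 33.8 in controls (adjusted p = 0.063), and summed haematopoietic markers gave 13.6 to 37.5 with DHT and 32.2 to 60.9 in controls (3 of 4). Summed stromal markers gave 437 to 506 with DHT and 478 to 542 in controls (5 of 5), and endothelial ones 200.2 to 262 with DHT and 191 to 204 in controls (3 of 3). Of the stromal markers, COL1A1 was lower at an adjusted p of 0.05 (132 with DHT and 198 in controls, -0.54). COL1A2, COL3A1, DCN and VIM (0.32) did not pass. Nothing in the labels beyond the words biological replicate says how separate the cultures were, so p-values measure the spread between these samples.

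After 48 h of DHT, 7 of the 45 tested splicing factor genes fell and 3 rose in the probe set read for them. The calls were made at an adjusted p of 0.05 in limma, a linear model fitted across all genes. MATR3, SCAF1, HNRNPDL, HNRNPD, HNRNPF, SRSF11 and SRSF5 fell, and SCAF4, SRSF7 and HNRNPA0 rose. For HNRNPA0 another probe set fell, so no direction can be given for the gene as a whole. Averaging over every tested probe set left 0 of the 45 genes higher and 9 lower, against 5.23% higher and 5.13% lower of all 14269 genes. HNRNPA0 then had -0.41 (limma adjusted p = 0.0059). In the probe set read for each gene, 5.99% of all 14269 tested genes were called lower and 6.97% higher, 13.0% in all. Among the splicing factors the shares were 15.6% lower and 6.67% higher. The splicing factors were measured more precisely, with a median SE of 0.083 against 0.140 for all genes. Their median absolute log2 fold change was 0.16, against 0.18 for all genes. The part of this precision in the shares called was not tested. The median log2 fold change was 0.00 for the splicing factors and 0.02 for all genes, and 41 of the 45 differed by less than 0.5 on the log2 scale (91.1%, against 89.5% of all genes). For 10 of the genes every DHT array was above every control array, and for 10 every DHT array was below. Over all genes the corresponding shares were 16.9% and 14.1%. Leaving out 1 array gave 6 to 8 genes lower and 1 to 3 higher, with 1 higher without DHT replicate 2 or 3 or control replicate 1 or 2, and without an intensity trend in the variance model only MATR3 and SCAF1 passed. Fold changes are on the scale of log2(signal + 16), which understates the change of dim genes. In bulk RNA, fewer cells expressing a gene and less RNA per cell cannot be told apart.

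**Figure D1:**
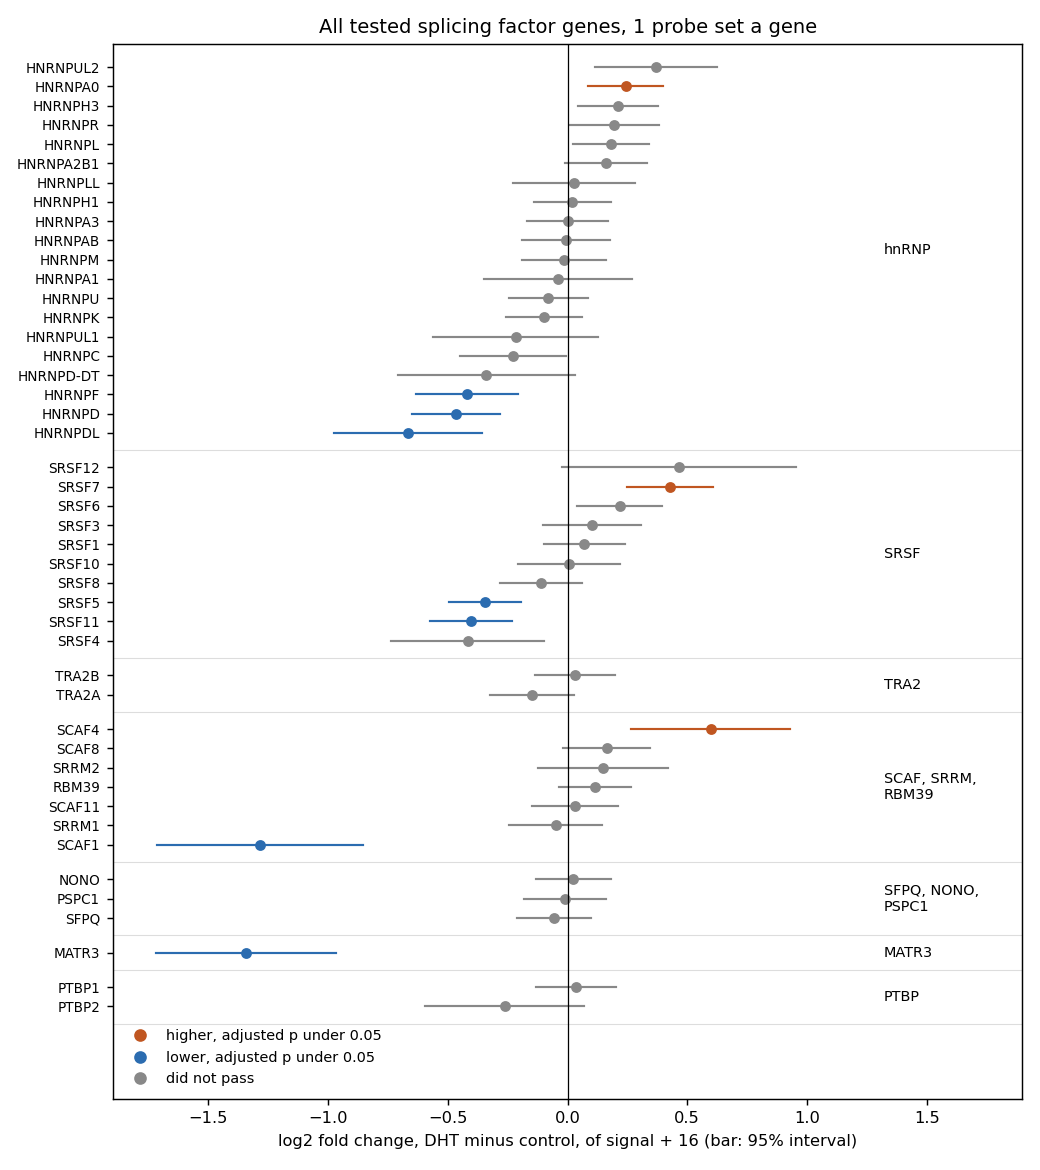
Log2 fold change (DHT minus control) of all 45 tested genes by family, with limma's 95% interval for each gene taken alone as a bar. Colours mark the 3 genes that passed as higher and the 7 that passed as lower, and MATR3 and SCAF1 stand furthest from 0.

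MATR3 and SCAF1 had the largest falls. MATR3 encodes matrin 3, a nuclear matrix protein with RNA recognition motifs and zinc fingers that binds pyrimidine-rich RNA and represses exons. Its probe set 242260_at gave signals of 80.1, 70.5 and 113 with DHT, against 289, 193 and 259 in controls. The lowest control array was above the highest DHT array. The difference was -1.34 ± 0.17 on the log2 scale (SE; limma adjusted p = 0.000587), with mean signals 2.81-fold lower with DHT. This was the only MATR3 probe set tested, and further ones that the annotation assigns to MATR3 together with another gene were not read.

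SCAF1 belongs to the SR-related factors that bind the C-terminal domain of RNA polymerase II. Its signals were 50.2, 44.9 and 54.0 with DHT, against 97.5, 187 and 161 in controls. The DHT arrays were close together and all below the more scattered controls. The change was -1.29 ± 0.20 on the log2 scale (limma adjusted p = 0.00155), with mean signals 2.99-fold lower with DHT. SCAF1 was read from a single probe set, 225500_x_at, whose suffix marks it as prone to cross-hybridisation. SCAF4, which binds the same domain and keeps transcripts from ending early, stood on the other side of 0. Its signals were 79.1, 94.1 and 115 with DHT, against 55.0, 58.1 and 59.1 in controls, without overlap. The log2 fold change was 0.60 ± 0.15 (limma adjusted p = 0.0247). The SCAF4 call was lost on removing any array except DHT replicate 1 (adjusted p = 0.053 to 0.0995), and the mean of its 4 tested probe sets had 0.11 (adjusted p = 0.672). Neither SCAF8 (0.16) nor SCAF11 (0.03), 2 further members of the group, passed.

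HNRNPD and its close relative HNRNPDL both fell in the probe set read for them. HNRNPD, also called AUF1, binds AU-rich elements and steers the decay of the mRNAs that carry them. HNRNPDL is built in the same way, around a pair of RNA recognition motifs. HNRNPD signals were 923, 759 and 859 with DHT, against 1206, 1119 and 1190 in controls. The groups did not overlap, and the log2 fold change was -0.47 ± 0.08 (limma adjusted p = 0.00425). HNRNPD probe set 209330_s_at had -0.46 (limma adjusted p = 0.0396 over probe sets), while 4 others did not pass and lay between -0.16 and 0.19. Of these 4, 221481_x_at, of the class prone to cross-hybridisation, was brighter than 209330_s_at and had -0.05 with overlapping groups. It differed from the probe set read by 0.42, and the dimmer 229129_at by 0.66 (limma adjusted p = 0.0209 and 0.0185 over pairs). With the mean of its 6 probe sets HNRNPD did not pass (-0.15, adjusted p = 0.324). HNRNPDL signals were 481, 477 and 462 with DHT, against 670, 647 and 1018 in controls. All control arrays were higher, control replicate 3 most of all. The log2 fold change was -0.67 ± 0.14 (limma adjusted p = 0.00986), and it still passed without any one array. In total 4 of 6 HNRNPDL probe sets passed as lower, at -0.90, -0.68, -0.67 and -0.53, and the remaining 2, both dimmer, had -0.07 and 0.20. Those at -0.68 (201993_x_at) and -0.53 (212454_x_at) are of the class prone to cross-hybridisation.

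The 2 genes are neighbours on human chromosome 4, with no protein-coding gene between them in the RefSeq gene table. HNRNPD-DT, a noncoding transcript that runs away from the HNRNPD start, had 37.2, 47.4 and 51.1 with DHT, against 55.4, 58.2 and 70.6 in controls. Those values did not overlap, but the difference did not pass (-0.34, limma adjusted p = 0.232). The sequences upstream of the RefSeq starts of both genes are shown because the genes lie close together and both fell in the probe set read for them. Those of SRSF5, which fell, and SRSF7, which rose, are shown as well. All are from RefSeq (GRCh38.p14), 5′ to 3′ on the strand of the gene, and end at the base before the most upstream listed start. They lie at chr4:82373992-82374241 (minus strand) for HNRNPD, chr4:82430463-82430589 (minus) for HNRNPDL, where the shorter stretch ends at the neighbouring gene ENOPH1, chr14:69766892-69767141 (plus) for SRSF5 and chr2:38751495-38751744 (minus) for SRSF7. Capitals mark matches, on either strand, to AGAACA (one arm of the androgen response element), CACGTG (an E-box, bound by MYC and related factors) and CCGGAA (the core bound by ETS factors).
HNRNPD: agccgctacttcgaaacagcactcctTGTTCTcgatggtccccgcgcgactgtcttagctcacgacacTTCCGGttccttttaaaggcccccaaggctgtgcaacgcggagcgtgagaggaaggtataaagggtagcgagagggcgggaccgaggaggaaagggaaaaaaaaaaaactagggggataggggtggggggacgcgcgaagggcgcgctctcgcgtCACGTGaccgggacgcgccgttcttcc
HNRNPDL: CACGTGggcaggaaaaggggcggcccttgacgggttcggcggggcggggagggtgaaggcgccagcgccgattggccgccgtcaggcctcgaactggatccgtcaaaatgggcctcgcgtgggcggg
SRSF5: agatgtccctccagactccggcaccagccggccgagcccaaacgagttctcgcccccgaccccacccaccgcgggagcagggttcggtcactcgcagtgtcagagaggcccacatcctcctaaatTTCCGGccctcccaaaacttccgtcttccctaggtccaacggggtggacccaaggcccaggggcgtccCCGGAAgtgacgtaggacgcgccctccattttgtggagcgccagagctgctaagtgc
SRSF7: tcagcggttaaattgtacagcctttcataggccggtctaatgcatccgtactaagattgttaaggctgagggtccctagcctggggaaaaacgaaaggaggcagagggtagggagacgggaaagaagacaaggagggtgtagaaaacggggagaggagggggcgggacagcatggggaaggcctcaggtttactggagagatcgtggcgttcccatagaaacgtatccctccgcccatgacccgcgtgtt

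The HNRNPD stretch held 1 match to each of the 3 motifs, HNRNPDL 1 E-box, SRSF5 2 ETS cores and SRSF7 none. Of the 45 genes, 40 had an upstream window of 250 bases in the RefSeq table. AGAACA was in 4 of the 40 windows, against 12.4% of all 27305 windows, and 1 of the 7 genes that fell held it (HNRNPD). E-boxes were in 5 of 40 windows, against 6.46% of all, and ETS cores in 7 of 40, against 14.8%. GC boxes (GGGCGG, bound by SP1) were in 25 of 40, against 42.2% of all windows. The complete palindromic androgen response element was in 0 of the 40 windows and in 1 of all 27305. A match describes letters only, and its absence says only that the letters are not in this window.

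HNRNPF, which binds runs of guanines near splice sites, fell as well. It gave 446, 467 and 374 with DHT, against 625, 565 and 542 in controls. No DHT array reached the controls, and the log2 fold change was -0.42 ± 0.10 (limma adjusted p = 0.0158). The HNRNPF call was lost on removing DHT replicate 3 (adjusted p = 0.0563), and likewise on removing control replicate 1 (adjusted p = 0.0574). Its relatives HNRNPH1 (0.02) and HNRNPH3 (0.21) did not pass.

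Among the numbered SR proteins, SRSF5 and SRSF11 fell and SRSF7 rose, of 10 tested. SRSF11 is an SR-related protein that contacts the 3' splice site factor U2AF. Its signals were 1347, 1352 and 1358 with DHT, against 1991, 1701 and 1707 in controls. The DHT arrays nearly coincided, below every control, and the change was -0.40 ± 0.08 on the log2 scale (limma adjusted p = 0.00613). SRSF5, an SR protein that binds exonic enhancers, had 910, 851 and 889 with DHT, against 1098, 1124 and 1159 in controls. The log2 fold change was -0.35 ± 0.07 (limma adjusted p = 0.00733), and a second SRSF5 probe set had -0.53 (adjusted p = 0.00105 over probe sets). That second probe set, 203380_x_at, is of the class prone to cross-hybridisation. SRSF7, a shuttling SR protein with a zinc knuckle that also serves mRNA export, had 664, 634 and 600.1 with DHT, against 450.2, 507 and 444 in controls. All DHT arrays were above the controls, and the change was 0.43 ± 0.08 on the log2 scale (limma adjusted p = 0.0061). The brightest SRSF7 probe set, 214141_x_at, had -0.02 with overlapping groups, 213649_at had 0.28 and the dim 211439_at -0.09, and none of these passed. Averaged over all its probe sets SRSF5 passed (-0.37, adjusted p = 0.0383), but SRSF11 (-0.09, adjusted p = 0.696) and SRSF7 (0.15, adjusted p = 0.202) did not, and SRSF8 passed as lower (-0.26, adjusted p = 0.0331). SRSF4 had -0.42 with an overlap between groups (adjusted p = 0.086). SRSF6 (0.22), SRSF3 (0.10), SRSF1 (0.07), SRSF10 (0.01) and SRSF8 (-0.11) did not pass, nor did the dim SRSF12 (0.47, adjusted p = 0.214).

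**Figure D2:**
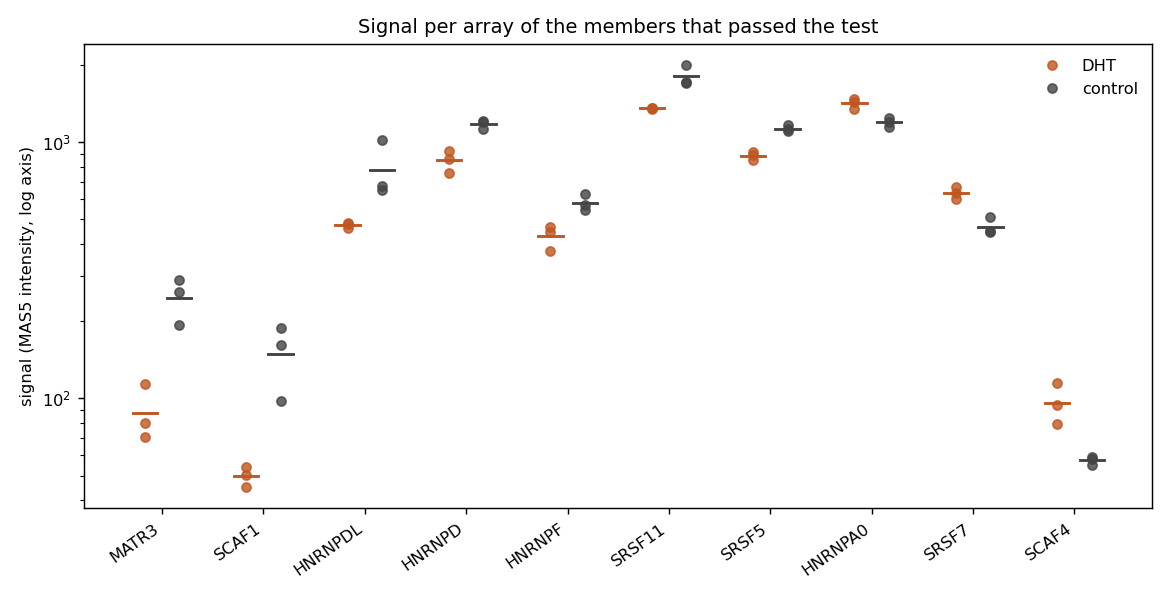
Signal of each array (log axis) for the 10 genes that passed, with DHT arrays left of control arrays and a line at the mean of each group of 3. The 2 groups overlap in none of the 10 genes, and HNRNPA0 shows the smallest distance in proportion.

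For the genes that were not called, the probe set read gives limits rather than changes. In 9 of these genes another probe set passed over probe sets, as given below. The brightest hnRNP, HNRNPK, a poly(C)-binding protein, had 3188, 3321 and 3155 with DHT, against 3253, 3668 and 3443 in controls. The groups overlapped, and the log2 fold change was -0.10, with a 95% interval of -0.26 to 0.06. After quantile normalisation HNRNPK passed as lower (-0.18, adjusted p = 0.0396), the only such alternative of 16. NONO, one of the paraspeckle proteins, gave 3823, 3768 and 4023 with DHT, against 3735, 3994 and 3693 in controls (0.02, interval -0.13 to 0.18). PTBP1, which represses exons through pyrimidine tracts, gave 1060, 985 and 1134 with DHT, against 1050, 1059 and 991 in controls (0.03, interval -0.13 to 0.20). PTBP1 was read from 211270_x_at, whose suffix marks it as prone to cross-hybridisation. It was the only 1 of 4 PTBP1 probe sets above the limit on dim signals. For the probe sets read for HNRNPK, NONO and PTBP1 the groups overlapped, and none passed on the deposited scale.

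TRA2B, a sequence-specific SR-like activator, had 929, 902 and 858 with DHT, against 910, 813 and 912 in controls (0.03, interval -0.14 to 0.20). RBM39, a U2AF-related factor and coactivator, had 1382, 1424 and 1512 with DHT, against 1324, 1322 and 1338 in controls. Its groups did not overlap, but the difference of 0.11 did not pass (limma adjusted p = 0.33). In the probe set read for each gene, 0 of the 3 paraspeckle genes, 0 of 2 PTBP genes and 0 of 2 TRA2 genes passed in limma. None of these 7 probe sets reached an unadjusted p of 0.05. Other probe sets of NONO (208698_s_at, lower) and SFPQ (226898_s_at, higher) did pass, as given below.

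Among the other hnRNPs, those of the A and B type, which wrap nascent RNA, had 0.16 (HNRNPA2B1), 0.00 (HNRNPA3) and -0.01 (HNRNPAB). HNRNPA1 (-0.04) was read from a dim probe set because the brighter one carries the _x_at suffix. That one, 214280_x_at, had 884, 924 and 864 with DHT, against 782, 809 and 704 in controls, without overlap but short of the threshold (0.22, adjusted p = 0.107 over probe sets). HNRNPC, which binds uridine tracts, had -0.23 (adjusted p = 0.177), HNRNPL 0.18, HNRNPR 0.20, HNRNPM -0.01, HNRNPU -0.08 and HNRNPLL 0.03. HNRNPUL2 came closest to the threshold, with 214, 195 and 222 with DHT, against 159, 137 and 184 in controls (0.37, limma adjusted p = 0.0597). Its other probe set, 222264_at, went the opposite way, also without overlap and short of the threshold (-0.38, limma adjusted p = 0.0742 over probe sets). The mean of both had 0.00 (limma adjusted p = 0.984).

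Different probe sets of one gene did not always move alike. In total 154 probe sets name 1 of these genes and passed the limit on dim signals, and 22 of them were lower and 5 higher at an adjusted p of 0.05 over all probe sets. This is 14.3% lower and 3.25% higher, against 5.25% lower and 5.09% higher among all 32768 probe sets, where 10.3% passed in all. The median SE was 0.117 for the probe sets of the splicing factors and 0.163 for all probe sets. Among the 109 probe sets that were not the one read for their gene, 15 were lower (13.8%) and 3 higher (2.75%), against 6.13% and 4.37% of all 12316 such probe sets. At least 1 probe set passed for 19 of the 45 genes (42.2%), against 16.5% of all genes, and 9 of the 19 are not among the 10 genes called. Genes with several tested probe sets had a median of 4 here and of 2 over all genes. Probe sets with the suffix _s_at, which can match several transcripts, made up 14 of the 22 that were lower (22.6% of 62), while 8.83% of all tested probe sets with this suffix were lower. Those with _x_at were lower in 5 of 23 (21.7%), against 7.23% of all, and those with no letter in 3 of 67 (4.48%), against 3.48% of all. The sources do not state where in a transcript a probe set lies. These differences stood beside the shift in the ACTB 3' to 5' ratio given above, whose part in them was not tested.

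**Figure D3:**
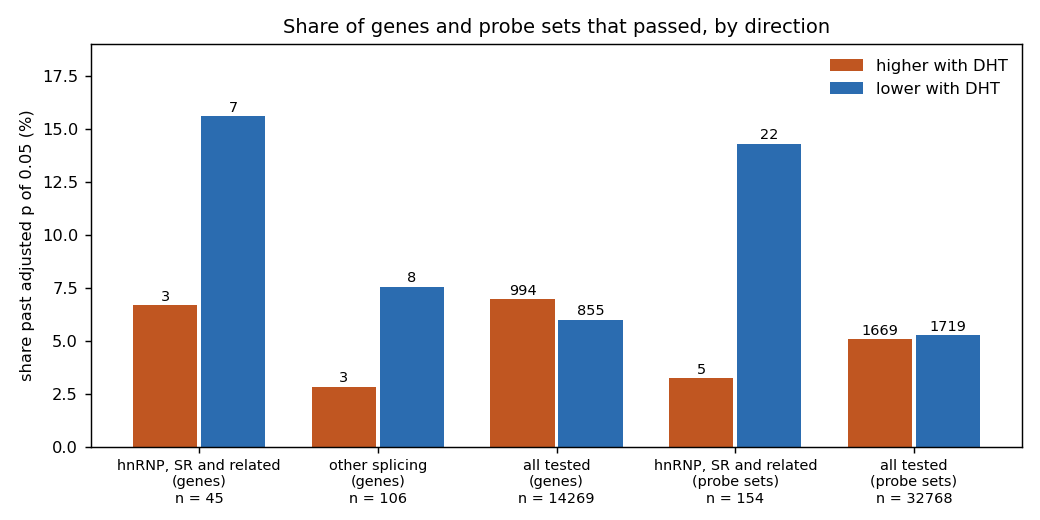
Share of genes (the 3 pairs of bars on the left) and of probe sets (the 2 on the right) past an adjusted p of 0.05 in limma, with the count above each bar. Calls as lower make up 15.6% of the hnRNP, SR and related genes and 14.3% of their probe sets, against 5.99% and 5.25% over everything tested. The median SE of the log2 fold change was smaller in this set than over everything tested, for genes and for probe sets.

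The difference between probe sets was tested directly. Within each array the log2 value of the probe set read for a gene was subtracted from that of each further probe set, and the change of this difference with DHT was fitted with limma over 12316 such pairs of all genes. Of 109 pairs of the splicing factors, 11 passed (10.1%), against 5.91% of all pairs. They lay in 9 of 37 genes (24.3%), against 8.77% of all genes with several probe sets. This test was added after the values were seen, and leaving out 1 array gave 4 to 11 pairs, with 4 without DHT replicate 1 or control replicate 3, 5 without DHT replicate 3 and 6 without control replicate 1. Without the variance trend 2 pairs passed, and with a pseudocount of 64 the number was 18.

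HNRNPA0, a small and intronless hnRNP gene whose protein binds AU-rich mRNAs, showed the widest split. The probe set read for the gene, 201054_at, had 1339, 1468 and 1426 with DHT, against 1192, 1142 and 1234 in controls. It passed narrowly as higher (0.24 ± 0.07, limma adjusted p = 0.0453 over genes, 0.0524 over probe sets). A second probe set, 201055_s_at, had 216, 273 and 223 with DHT, against 657, 707 and 685 in controls. Its log2 fold change was -1.47 ± 0.10 (limma adjusted p = 7.31e-06 over probe sets), the largest among the 154 probe sets. The remaining one, 229083_at, had 0.00. The difference between the first pair was -1.71 ± 0.11 (limma adjusted p = 1.84e-05 over pairs) and passed in all 15 alternatives. The call of HNRNPA0 as higher did not hold without any one of the 6 arrays (adjusted p = 0.0533 to 0.154), and the mean of its probe sets was -0.41 (adjusted p = 0.0059), so no direction can be given for the gene as a whole.

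SRRM2, a very large SR-related protein at the core of nuclear speckles, was similar. Its brightest probe set, 208610_s_at, had 719, 1047 and 1032 with DHT, against 866, 802 and 819 in controls. These groups overlapped (0.15, adjusted p = 0.504), with DHT replicate 1 below all controls. Probe set 207435_s_at had 465, 415 and 475 with DHT, against 1031, 937 and 1070 in controls. Every DHT array was below the controls, at -1.14 ± 0.08 (limma adjusted p = 1.63e-05 over probe sets). The dimmer 216629_at had -1.22 (adjusted p = 0.00183), with signals with DHT of 14.6 to 22.8, near the limit of 17.3 on dim probe sets. Both differed from the brightest probe set, by -1.28 ± 0.15 and -1.37 ± 0.21 (limma adjusted p = 0.00126 and 0.00388 over pairs). With the mean of its probe sets SRRM2 passed as lower (-0.65, adjusted p = 0.00157). Without DHT replicate 1 the brightest probe set itself passed, in the higher direction.

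HNRNPUL1, an hnRNP U-like protein, had 131, 132 and 89.7 in probe set 209675_s_at with DHT, against 250.1, 258 and 244 in controls. The log2 fold change was -1.01 ± 0.13 (limma adjusted p = 0.000792 over probe sets), whereas the probe set read for the gene had -0.22 (adjusted p = 0.424), with overlapping groups. The difference between the 2 did not pass (-0.80, adjusted p = 0.0853 over pairs), and the mean of both was lower (-0.62, adjusted p = 0.00161). SFPQ, the partner of NONO in paraspeckles, went the other way. Its dim probe set 226898_s_at had 110, 88.4 and 106 with DHT, against 55.1, 55.6 and 58.0 in controls (0.70 ± 0.14, limma adjusted p = 0.00833 over probe sets), and the 4 other SFPQ probe sets lay between -0.28 and -0.05 without passing. The difference from the probe set read for SFPQ was 0.75 ± 0.13 (limma adjusted p = 0.00655 over pairs).

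SRSF1 and HNRNPC each had 1 probe set called in either direction. For SRSF1, the founding SR protein, 226419_s_at had 121, 117 and 136 with DHT, against 73.5, 77.0 and 84.7 in controls (0.57 ± 0.12). Its probe set 208863_s_at had 275, 347 and 255 with DHT, against 410, 406 and 356 in controls (-0.41 ± 0.11, limma adjusted p = 0.0431 over probe sets). For neither did the difference from the probe set read for SRSF1 pass (adjusted p = 0.054 and 0.0535). For HNRNPC, 227110_at had 0.41 and 212626_x_at -0.30, and the first differed from the probe set read by 0.63 ± 0.15 (limma adjusted p = 0.0263 over pairs). Of these 4 calls, SRSF1 208863_s_at and HNRNPC 227110_at were each lost in 8 of 15 alternatives, 5 of them removals of 1 array, HNRNPC 212626_x_at in 5 and SRSF1 226419_s_at in 1.

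The other genes with a called probe set beyond the one read were less split. For HNRNPM, which binds GU-rich RNA and shapes alternative exons, 1555844_s_at had 733, 766 and 720 with DHT, against 1056, 964 and 978 in controls (-0.43 ± 0.07, limma adjusted p = 0.00363 over probe sets). All its DHT arrays were below the controls, and it differed from the probe set read by -0.41 ± 0.09 (adjusted p = 0.0256 over pairs). For NONO, 208698_s_at had 1208, 1417 and 1350 with DHT, against 1620, 1614 and 1641 in controls (-0.29 ± 0.08), and its difference from the brightest probe set was -0.32 ± 0.08 (adjusted p = 0.042 over pairs). SCAF11 (213850_s_at, -0.31) and SRSF8 (228760_at, -0.47) each had 1 probe set that fell, without a pair that passed. The remaining pairs that passed were in HNRNPD (0.66 and 0.42), HNRNPU (0.49) and HNRNPUL2 (-0.75). The differences of HNRNPM, NONO, HNRNPU and HNRNPUL2 passed in 8, 5, 6 and 6 of 15 alternatives.

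Genes with a range over 1 log2 unit or with calls in both directions were HNRNPA0, SRRM2, HNRNPDL, SRSF1 and HNRNPC. The range exceeded 1 in 3 of 37 genes with several tested probe sets (8.11%), against 3.54% of all such genes, which have a median of 2 probe sets and not 4.

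**Figure D4:**
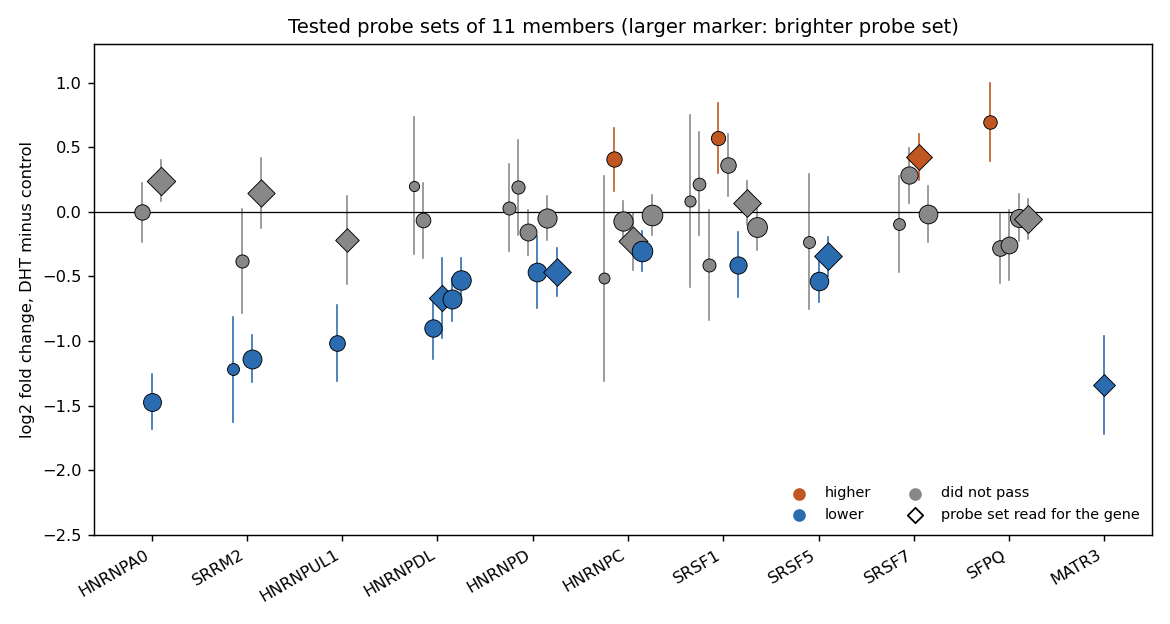
Log2 fold change (DHT minus control) with its 95% interval for each tested probe set of 11 genes, ordered within a gene from the dimmest to the brightest, with diamonds for the probe set read for the gene. HNRNPA0, SRRM2 and HNRNPUL1 each hold a probe set at -1.01 or below beside a brighter one that did not pass over probe sets, while 4 HNRNPDL probe sets fell together.

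The rest of the splicing machinery was read from 6 lists of 114 genes, of which 106 were tested. Of these, 3 rose and 8 fell, and their median was -0.07. Leaving out 1 array gave 1 to 3 higher, with 1 without DHT replicate 1. It gave 4 to 7 lower, with 4 without DHT replicate 3 and 5 without control replicate 3. Without the variance trend 0 were higher and 3 lower. At an unadjusted p under 0.05 these were 5 and 14, against 9 and 22 with the trend. With the trend, 1976 of all 14269 genes were higher and 1738 lower at an unadjusted p under 0.05. At an adjusted p of 0.05, 10.4% of the other splicing genes were called in all, against 13.0% of all genes. None of 8 tested SR protein kinases, which phosphorylate the arginine and serine tails, passed in limma or reached an unadjusted p of 0.05. The rest of that list, PPP1R8 and PRPF4B, has no probe set that names either alone, so no phosphatase gene was tested. None of 14 Sm and LSm core proteins of the snRNPs passed or reached an unadjusted p of 0.05. The smallest adjusted p in these lists were those of CLK4 (0.18, adjusted p = 0.263), DYRK1A (-0.14), LSM2 (-0.30, adjusted p = 0.197) and SNRPB (0.18). Of 20 genes of U1 and U2 snRNPs and splice site recognition, SF3A2 (-0.43 ± 0.10, limma adjusted p = 0.0155) and the branch point binding protein SF1 (-0.36 ± 0.11, adjusted p = 0.0484) fell, and 0 rose (2 higher and 7 lower at an unadjusted p of 0.05). Of 21 genes of the tri-snRNP and catalytic spliceosome, the scaffold PRPF6 fell (-0.54 ± 0.09) and the helicase DHX15, which releases spent spliceosomes, rose (0.29 ± 0.07).

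In the exon junction complex, which marks spliced mRNAs, 2 of 8 tested genes fell and 1 rose. RBM8A, a core subunit, averaged 477 with DHT and 614 in controls (-0.35 ± 0.08), ACIN1 had -0.51 ± 0.14, and RNPS1 had 0.28 ± 0.07, each past the threshold. Of 35 other RNA-binding regulators of splicing, 3 fell and 1 rose, with a median of -0.10. KHDRBS1 (Sam68), a signalling-responsive splicing regulator, averaged 900.1 with DHT and 1354 in controls (-0.58 ± 0.07, limma adjusted p = 0.000587). TAF15, of the same family as EWSR1, averaged 233 with DHT and 372 in controls (-0.64 ± 0.10). The third to fall was YBX1 (-0.28), and the RNA helicase DDX17 rose (0.50 ± 0.10).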

How the data were processed

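RNA of 6 LNCaP cultures was hybridised to 1-colour Affymetrix arrays. The authors deposited 1 table of signal intensities, computed by MAS5 per the submitters' processing notes. The deposited values were linear and had a common 2% trimmed mean, so no further normalisation was applied. Of 54675 probe sets, 62 array controls and the dimmest 40% by mean log2 signal (17.3) were left out, leaving 32768. Platform annotation names 1 gene for 41097 probe sets, several for 1801 and none for 11777; 41043 matched a GRCh38.p14 gene table by identifier, which changed 0 symbols. Each gene's value came from the brightest probe set that names no other gene, with _x_at used only if no other passed. Values as log2(signal + 16) were fitted with limma 3.58.1 (trend, R 4.3.3; 4 residual degrees of freedom) over all probe sets, with Benjamini-Hochberg adjustment over the 14269 genes read, or over probe sets or pairs where stated. The fit was tested on simulated data. Genes given with every array's signal were all that passed and the brightest of each family; other probe sets and genes shown so (HNRNPUL2, HNRNPD-DT and those that split) were chosen after their values were seen. From each related list the 2 genes with the smallest adjusted p were named, with ACIN1, YBX1 and DDX17 added to complete a small count. Members and lists were chosen with earlier results of these data known. Promoter windows were searched in Python 3.11.15. Alternatives were pseudocounts of 1 and 64, no limit or a 60% limit on dim probe sets, quantile normalisation, equal medians, a replicate block, limma without trend or robust, means of probe sets, and leaving out each array. Array number limits the precision.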

Additional observations from a re-analysis of the deposited data

How the results depend on the processing

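When limma's variance had no intensity trend, 0 of the splicing factor genes passed as higher and 2 as lower (MATR3 and SCAF1). At an unadjusted p under 0.05 these were 5 and 8, against 8 and 9 with the trend. Their probe sets gave 2 higher and 10 lower, and 2 pairs of probe sets passed. Of the other splicing genes 0 and 3 passed, and 5 and 14 unadjusted, against 9 and 22 unadjusted with the trend. Over all genes 388 passed as higher and 293 as lower without the trend, against 994 and 855 with it. With the trend 1976 of all genes were higher and 1738 lower at an unadjusted p under 0.05. When all probe sets of a gene were averaged, 0 splicing factor genes were higher (1 unadjusted) and 9 lower, 5 other splicing genes were lower, and HNRNPA0 turned to -0.41. Over all genes 746 (5.23%) were higher and 732 (5.13%) lower with this averaging. Probe sets called higher numbered 3 with no limit on dim signals and 8 with the 60% limit. Other splicing genes called lower numbered 5 with no limit, and those called higher 5 with the 60% limit and 1 with equal array medians. A pseudocount of 64 gave 18 pairs. Leaving out each array in turn gave 1 to 3 genes higher and 6 to 8 lower, 3 to 5 probe sets higher and 17 to 21 lower, 1 to 3 and 4 to 7 other splicing genes, and 4 to 11 pairs. Under these 16 settings MATR3 and SCAF1 passed as lower throughout, and HNRNPDL and SRSF5 in 15. Same-numbered arrays did not deviate together (r = -0.01, -0.03 and -0.000918; 0 of 6 arrays matched their own number best), so the numbers do not pair the samples. With the replicate block 3 genes were higher and 8 lower, with HNRNPUL2 and SRSF4 gained and HNRNPA0 lost, and probe sets gave 5 higher and 23 lower, and pairs 8. Except where construction shows it (fewer genes or arrays), the cause was not tested.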
